A study of Mus musculus with 3 samples.

Results

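The 10 genes Gbp2, Gbp3, Gbp5, Gbp6, Gbp7, Gbp9, Igtp, Irgm1, Irgm2 and Iigp1 encode interferon-gamma induced GTPases of the mouse. They were taken by gene symbol from the 32285 genes of the files, and all 10 were found. The group was chosen by earlier looks at UMI levels in these same libraries, per class of nuclei and library, so its levels are a description. RNA of single nuclei was counted in the submandibular gland, a major salivary gland, of wild-type (WT) mice. The IR+pilocarpine library came from irradiated mice treated from day 30 to day 90 with pilocarpine, a muscarinic agonist that drives saliva flow. The IR+saline library came from irradiated mice given saline, and the non-IR library from mice with no treatment, so the non-irradiated mice had no saline. Sample titles place both irradiated libraries at 90 days after irradiation, whereas the extraction protocol gives 93 days. The radiation dose, the number of mice per library, their age and their sex are not given in the sources used here. Each group had 1 library, so the values below describe these 3 libraries, and a group cannot be told apart from its library.

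Interferon-gamma, secreted mainly by T cells and natural killer cells, binds a receptor of the chains Ifngr1 and Ifngr2 and acts through the kinases Jak1 and Jak2. The signal reaches DNA at gamma-activated sequences (GAS), and it also induces the factor Irf1, which binds the interferon-stimulated response element (ISRE). Among the strongest targets in mouse cells are 2 families of cell-autonomous defence GTPases. Guanylate-binding proteins (Gbp genes) are dynamin-related GTPases that assemble on pathogen vacuoles and bacteria and help activate inflammasomes. Immunity-related GTPases (Irgm1, Irgm2, Igtp and Iigp1) act on internal membranes: Irgm1, Irgm2 and Igtp are regulators that hold the effector class inactive on the cell's own membranes, and Iigp1 is an effector that disrupts parasite vacuoles. Type I interferon, which signals through other receptors to the ISRE, can also raise part of both families.

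Promoter sequences are shown because they hold the letters that both routes recognise. RefSeq promoters of GRCm38.p6, from 250 bases before to 50 bases after a transcript start, were used for 7 of the 10 genes, with 8 promoters in all. No promoter entry was found for Gbp6 and Gbp9. Iigp1 was left out of the search, so nothing is said here of its motifs. The GAS motif TTCNNNGAA, which reads alike on both strands, and the ISRE core, which is TTTC, any 2 bases and TTTC again, or GAAA, any 2 bases and GAAA on the other strand, were searched. The ISRE core was found in 7 of the 8 promoters, all but the second one of Gbp3, and in 3.44% of all 32851 promoters of the same length. The GAS motif was found in 4 of the 8, of Gbp5, Gbp7, Igtp and Irgm2, and in 8.30% of all promoters. Both motifs together occurred in 0.454% of all promoters. A match describes letters in this window and is no measure of binding. In the windows below, written 5′ to 3′ on the gene's strand, capitals mark the matches to either motif, and overlapping ISRE cores run together in Gbp3 and Irgm1. A further GAS match of Gbp5 lay upstream of its window. The windows of Igtp and Irgm2 were identical at 49 of 51 bases.
Gbp2 (chr3:142620589-142620628, plus strand): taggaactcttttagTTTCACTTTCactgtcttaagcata
Gbp3 (chr3:142559984-142560029, plus strand): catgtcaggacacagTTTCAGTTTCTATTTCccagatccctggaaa
Gbp5 (chr3:142496754-142496905, plus strand): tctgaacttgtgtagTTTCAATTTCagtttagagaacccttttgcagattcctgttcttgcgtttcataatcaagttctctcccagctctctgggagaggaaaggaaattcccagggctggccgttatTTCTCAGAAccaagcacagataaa
Gbp7 (chr3:142530215-142530307, plus strand): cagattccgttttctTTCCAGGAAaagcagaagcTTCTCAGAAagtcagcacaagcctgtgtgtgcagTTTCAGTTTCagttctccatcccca
Irgm1 (chr11:48871421-48871465, minus strand): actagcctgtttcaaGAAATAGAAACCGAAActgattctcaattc
Irgm2 (chr11:58214887-58214937, plus strand): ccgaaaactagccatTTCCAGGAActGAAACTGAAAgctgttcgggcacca
Igtp (chr11:58199496-58199546, plus strand): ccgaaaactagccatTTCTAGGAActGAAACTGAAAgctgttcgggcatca

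The genes sit in clusters. On GRCm38, Gbp5, Gbp7, Gbp3 and Gbp2 follow each other on the plus strand of chromosome 3, from base 142493978 to base 142638008. Gbp9 and Gbp6 lie on the minus strand of chromosome 5, Irgm1 on the minus strand of chromosome 11, and Iigp1 on chromosome 18. Igtp (chr11:58199556-58207591) lies almost wholly inside the annotated span of Irgm2 (chr11:58199618-58222782) on the same strand, and Gbp9 overlaps Gbp8 and Gbp4. Reads shared by such overlaps or by near-identical family copies may have been assigned to either gene or dropped, so the split between Igtp and Irgm2 and the values of Gbp9 are uncertain.

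Levels are unique molecular identifiers (UMIs, molecules counted once each) of a gene per 1000000 UMIs of the nuclei of a class in a library, abbreviated CPM. They are not corrected for gene length, so ratios between libraries compare each gene with itself. Where UMIs of different members are set side by side below, gene length was not taken into account. The files held 10288 barcodes in the IR+pilocarpine library, 10161 in the IR+saline library and 12062 in the non-IR library, with 34322111, 29946943 and 26417958 UMIs. Of these, 8376, 8622 and 10633 nuclei were used, with a median of 2048, 2113 and 1536 UMIs. Between 28 and 33 barcode sequences were shared by any pair of libraries, at most 0.321% of a library's barcodes. Nuclei formed 26 clusters, and 8 classes named from marker genes held at least 50 nuclei in every library. Acinar RNA was also found in other classes. In fibroblast-like nuclei the 12 acinar markers summed to 51381 CPM in the IR+pilocarpine library, 31371 CPM in the IR+saline library and 44383 CPM in the non-IR library, against 75604, 77960 and 65098 CPM in acinar-like nuclei. A cluster of 589 nuclei with a median of 12286 UMIs and mixed leading genes stayed unnamed. It held 2367 of the 7422 GTPase UMIs of the IR+pilocarpine library, at 223 CPM, against 132 CPM in the IR+saline library and 60.2 CPM in the non-IR library.

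Over all nuclei, the 10 GTPases summed to 222 CPM in the IR+pilocarpine library, 112 CPM in the IR+saline library and 52.3 CPM in the non-IR library. These values also reflect class makeup, whose part was not tested. Granular or striated duct-like nuclei were 4.47%, 20.3% and 7.41% of the nuclei in the same order, and myoepithelial-like nuclei 9.32%, 4.38% and 3.26%. Fibroblast-like nuclei held the highest sum of the 8 classes in the IR+pilocarpine library, at 948 CPM, against 426 CPM in the IR+saline library and 178 CPM in the non-IR library. Endothelial-like nuclei had 594 CPM in the IR+pilocarpine library, 542 CPM in the IR+saline library and 267 CPM in the non-IR library, which made them the highest of the 8 classes in the IR+saline and non-IR libraries. Myoepithelial-like nuclei, of the contractile cells that squeeze the acini, had 339, 155 and 101 CPM in the IR+pilocarpine, IR+saline and non-IR libraries. Acinar-like nuclei had 122, 66.3 and 32.0 CPM and granular or striated duct-like nuclei 68.7, 54.3 and 31.7 CPM, in the same order. With free RNA subtracted the duct-like order reversed, to 0.493 times for IR+saline against non-IR, 0.304 times for IR+pilocarpine against non-IR and 0.615 times for IR+pilocarpine against IR+saline. How free RNA was estimated is not described here, so these ratios show only that the result moved. Acinar markers in duct-like nuclei summed to 62466 CPM in IR+pilocarpine, 25111 CPM in IR+saline and 40525 CPM in non-IR, and their part in the result was not tested. Without that subtraction, these saliva-making and saliva-modifying cells had the lowest sums of the 8 classes in each library.

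**Figure D1:**
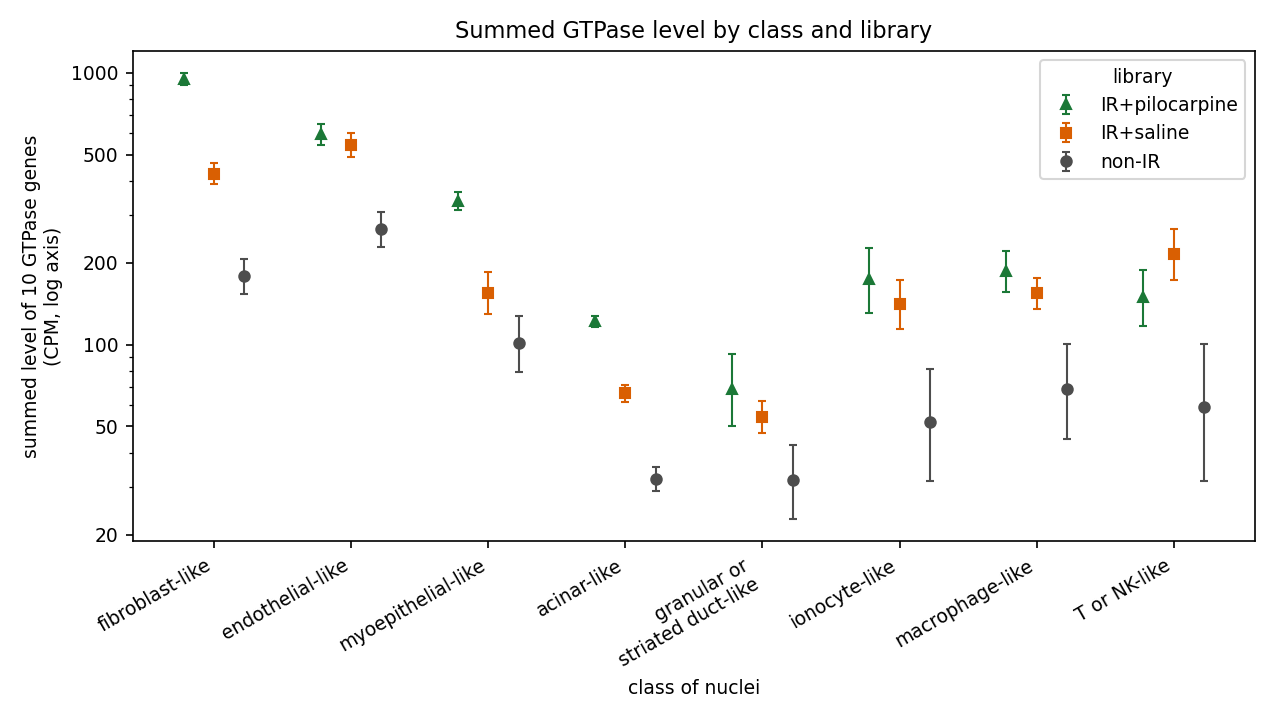
Summed level of the 10 GTPase genes (CPM, log axis) in 8 classes of nuclei, with 1 point per library (green triangles IR+pilocarpine, orange squares IR+saline, grey circles non-IR) and exact Poisson 95% intervals that cover counting error only. The non-IR point is the lowest in each class, and IR+pilocarpine lies far above IR+saline in fibroblast-like nuclei (948 and 426 CPM) but close to it in endothelial-like nuclei (594 and 542 CPM).

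In fibroblast-like nuclei, the IR+saline library had 2.39 times the summed level of the non-IR library (95% counting interval 2.01 to 2.85), and the IR+pilocarpine library 2.23 times that of IR+saline (2.01 to 2.47). Against the non-IR library the IR+pilocarpine sum was 5.32 times as high (4.55 to 6.25). Of the 10 members, 10 were higher and 6 were at least 2-fold higher in IR+saline than in non-IR, where 7.03% of the 12274 genes tested were. All 10 were also higher in IR+pilocarpine than in IR+saline, 6 of them at least 2-fold, with a background of 6.11% of 12857 genes. These comparisons share the IR+saline library. For IR+pilocarpine over non-IR, 10 of 10 were at least 2-fold higher, with a background of 6.48%. The genes were grouped with results of these data known, so the counts are a description and no test was made. With only the nuclei of at least 1000 genes, the IR+saline sum was 1.67 times the non-IR sum and 3 members were past 2-fold, as were 3 without the highest doublet scores. Shares over all genes under these settings are not given here.

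The regulators of the immunity-related family are Igtp, Irgm2 and Irgm1. Igtp, also called Irgm3, had 55 UMIs (35.9 CPM) in fibroblast-like nuclei of the IR+pilocarpine library, 7 UMIs (5.85 CPM) in IR+saline and 3 UMIs (2.99 CPM) in non-IR. IR+pilocarpine thus stood apart from both other libraries, at 6.13 times IR+saline (2.78 to 16.0), whereas IR+saline against non-IR, at 1.96 times (0.448 to 11.7), was not distinguishable at this depth. Irgm2 had 178 UMIs (116 CPM) in IR+pilocarpine, 52 (43.5 CPM) in IR+saline and 17 (16.9 CPM) in non-IR. Each step was past 2-fold, at 2.67 times for IR+pilocarpine against IR+saline (1.95 to 3.71) and 2.57 times for IR+saline against non-IR (1.46 to 4.74). Irgm1, whose loss in mice impairs defence against mycobacteria, had smaller ratios than Igtp and Irgm2 in both comparisons. It had 69.2 CPM in IR+pilocarpine, 41.0 CPM in IR+saline and 29.9 CPM in non-IR, with ratios of 1.69 (1.19 to 2.42) for IR+pilocarpine against IR+saline and 1.37 (0.854 to 2.24) for IR+saline against non-IR.

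The effector Iigp1 (also called Irga6) contributed the most UMIs of the family in this class. It had 578 UMIs (377 CPM) in the IR+pilocarpine library, 149 UMIs (125 CPM) in IR+saline and 39 UMIs (38.8 CPM) in non-IR. The 3 libraries were well separated, at 3.03 times for IR+pilocarpine against IR+saline (2.52 to 3.65) and 3.21 times for IR+saline against non-IR (2.24 to 4.69). Its ratio for IR+pilocarpine against non-IR was 9.72 (7.02 to 13.8). Of the 12657 genes tested there, 4 had a larger log2 ratio of CPM + 1 than Iigp1 and 7 a larger one than Igtp. Without Iigp1, the sum of the other 9 members was 1.90 times as high in IR+pilocarpine as in IR+saline (1.68 to 2.15).

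Of the chromosome 3 guanylate-binding genes, Gbp5 and Gbp3 were higher in both irradiated libraries than in non-IR, and Gbp7 separated all 3 libraries. Gbp5, which promotes assembly of the Nlrp3 inflammasome, had 42.4 CPM in IR+pilocarpine and 41.0 CPM in IR+saline, against 10.9 CPM in non-IR. Its ratio was 1.04 between both irradiated libraries (0.704 to 1.53) and 3.74 for IR+saline against non-IR (1.92 to 7.98). Gbp3 had 69.8 CPM in IR+pilocarpine and 54.3 CPM in IR+saline, against 22.9 CPM in non-IR, with a ratio of 1.28 between both irradiated libraries (0.935 to 1.78). Gbp7, which mouse work links to assembly of the phagocyte oxidase, had 107 CPM in IR+pilocarpine, 58.5 CPM in IR+saline and 22.9 CPM in non-IR. Its ratios were 1.83 for IR+pilocarpine against IR+saline (1.37 to 2.45) and 2.56 for IR+saline against non-IR (1.58 to 4.29). Gbp2, which coats Toxoplasma vacuoles and bacteria, had 34.6, 14.2 and 5.97 CPM in the same order, from 53, 17 and 6 UMIs. Its IR+pilocarpine level was 2.43 times that of IR+saline (1.39 to 4.48), while IR+saline against non-IR, at 2.38 times (0.895 to 7.37), was not distinguishable at this depth.

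The chromosome 5 genes Gbp6 and Gbp9 were higher in IR+pilocarpine than in IR+saline, while the step from non-IR was within counting error. Gbp6, which also reaches Toxoplasma vacuoles, had 80.2 CPM in IR+pilocarpine, 35.9 CPM in IR+saline and 22.9 CPM in non-IR. Its ratios were 2.23 for IR+pilocarpine against IR+saline (1.57 to 3.24) and 1.57 for IR+saline against non-IR (0.926 to 2.73). Gbp9 had only 24, 8 and 4 UMIs in the IR+pilocarpine, IR+saline and non-IR libraries, with a ratio of 2.34 for IR+pilocarpine against IR+saline (1.02 to 6.03).

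**Figure D2:**
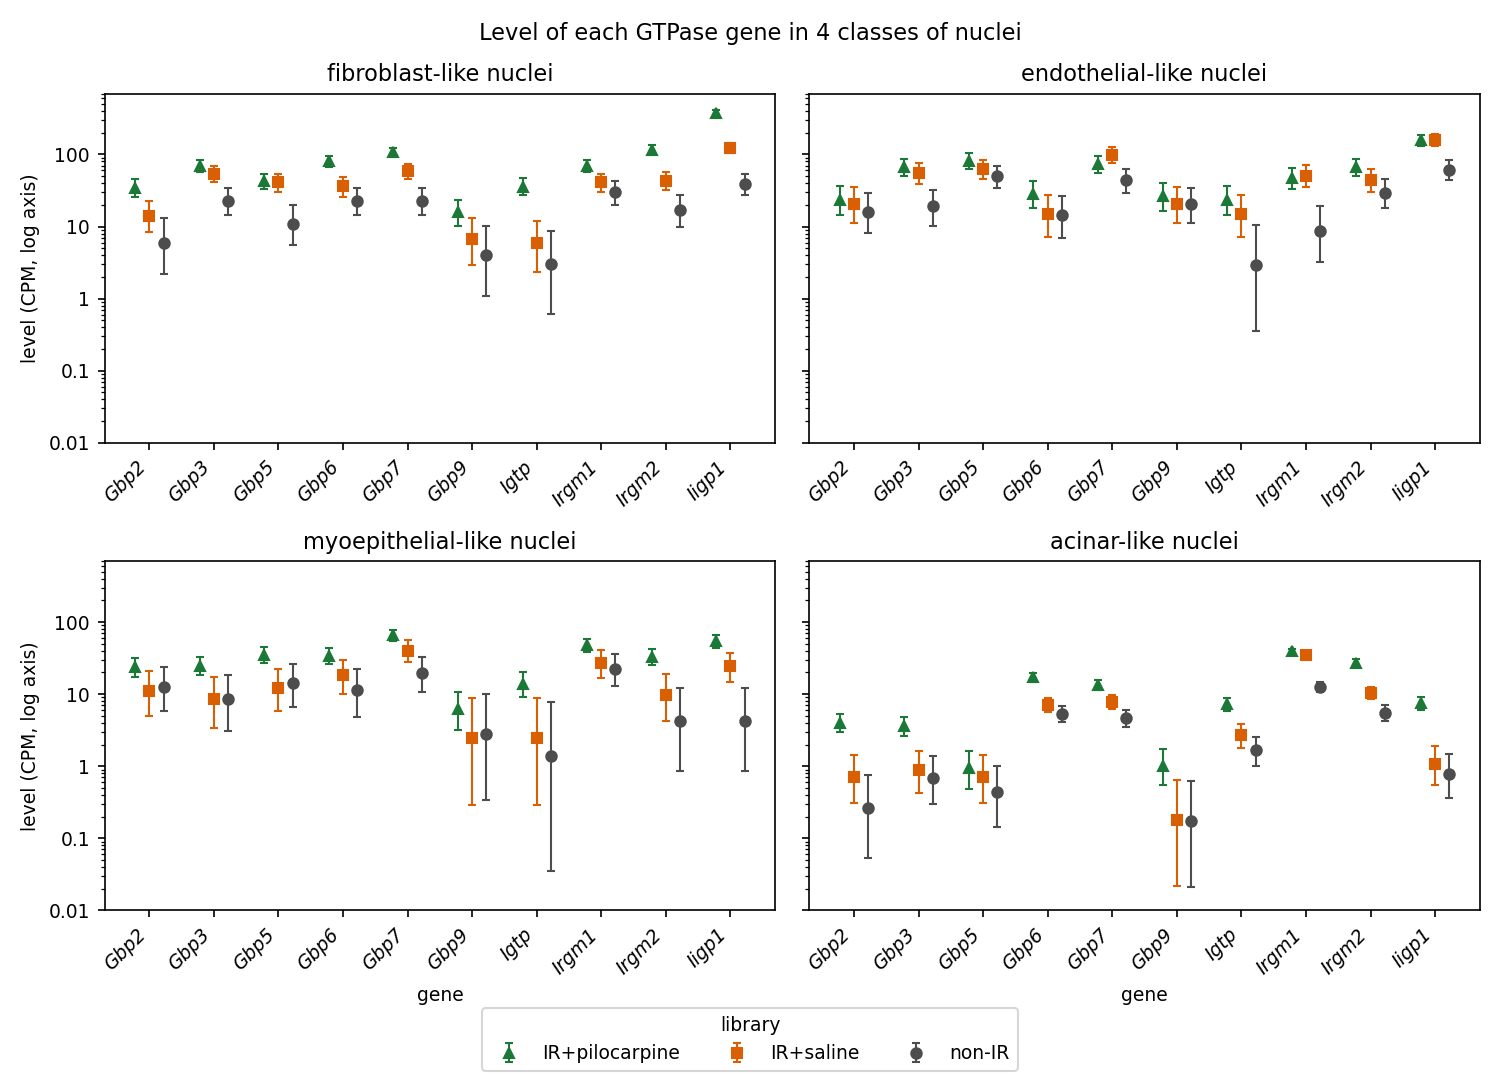
Level of each GTPase gene (CPM, log axis) in fibroblast-like, endothelial-like, myoepithelial-like and acinar-like nuclei, 1 point per library with its exact Poisson 95% interval (counting error only). In fibroblast-like nuclei Iigp1, Igtp and Irgm2 separate IR+pilocarpine (377, 35.9 and 116 CPM) from IR+saline (125, 5.85 and 43.5 CPM), while Gbp5 lies at 42.4 and 41.0 CPM; in endothelial-like nuclei the IR+pilocarpine and IR+saline intervals overlap for each gene.

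RNA of immune cells in the fibroblast-like nuclei was low. The 12 macrophage markers summed to 57.4 CPM in IR+pilocarpine, 57.7 CPM in IR+saline and 38.8 CPM in non-IR, against 1183, 1078 and 944 CPM in macrophage-like nuclei. The 13 T and NK markers summed to 10.4, 12.5 and 12.9 CPM, and Cd3d, Cd3g, Bcl11b, Gzma and Nkg7 were at 0 in all 3 libraries. Macrophage-like nuclei themselves held 186, 155 and 68.6 CPM of the GTPases in the same order, less than the fibroblast-like nuclei of the same library. Acinar markers, at the sums given above, were also highest in the IR+pilocarpine library, and their part in the result was not tested. The 9 fibroblast markers were all detected, with sums of 7363 CPM in IR+pilocarpine, 9458 CPM in IR+saline and 7131 CPM in non-IR.

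In endothelial-like nuclei, the GTPases were higher in both irradiated libraries than in the non-IR library, and the irradiated libraries lay close together. The sum in IR+saline was 2.04 times that of non-IR (1.70 to 2.45), and that in IR+pilocarpine 1.10 times that of IR+saline (0.954 to 1.26). All 10 members were higher in IR+saline than in non-IR and 5 at least 2-fold higher, Gbp3, Gbp7, Igtp, Irgm1 and Iigp1, with a background of 7.59%. Igtp rests there on 10 UMIs against 2, and its direction reversed to 0.554 times in nuclei thinned to 800 UMIs. Between IR+pilocarpine and IR+saline, 7 were higher and 3 lower in IR+pilocarpine, 0 past 2-fold, with backgrounds of 5.47% higher and 6.52% lower. Against non-IR, 5 were at least 2-fold higher in IR+pilocarpine, with a background of 6.13%. When each library was clustered alone, the IR+saline sum was 1.13 times the non-IR sum (0.938 to 1.35) and 2 members were past 2-fold. The same clustering put IR+pilocarpine at 1.43 times IR+saline (1.25 to 1.65) with 3 members past 2-fold, and thinning to 800 UMIs put 4 past 2-fold. Shares over all genes for these alternative runs are not given here. Fibroblast markers in these nuclei summed to 344 CPM in IR+pilocarpine, 265 CPM in IR+saline and 231 CPM in non-IR and acinar markers to 58273, 47078 and 46906 CPM, and their part in the result was not tested.

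Iigp1 had 126 UMIs (157 CPM) in endothelial-like nuclei of IR+pilocarpine and 108 UMIs (160.5 CPM) in IR+saline, against 42 UMIs (61.5 CPM) in non-IR. Both irradiated libraries were above non-IR and not distinguishable from each other, with a ratio of 0.978 between them (0.75 to 1.28). Irgm1 had 38 UMIs in IR+pilocarpine and 34 in IR+saline, against 6 in non-IR, and was 5.75 times as high in IR+saline as in non-IR (2.39 to 16.8). Gbp7 was the reverse of its fibroblast order between the irradiated libraries, with 73.5 CPM in IR+pilocarpine and 98.1 CPM in IR+saline, but its ratio of 0.749 spanned no difference (0.518 to 1.08). Gbp5 had 81.0 CPM in IR+pilocarpine, 62.4 CPM in IR+saline and 49.8 CPM in non-IR. Gbp2, Gbp6 and Gbp9 had ratios between 1.01 and 1.29 for IR+saline against non-IR.

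In myoepithelial-like nuclei, the larger difference was between the irradiated libraries. The sum in IR+pilocarpine was 2.18 times that in IR+saline (1.80 to 2.65), and that in IR+saline 1.54 times that in non-IR (1.14 to 2.08). A single non-IR nucleus held 14 of the 72 GTPase UMIs of this class in non-IR, an unevenness that the counting interval does not cover. Of the 10 members, 10 were higher and 7 at least 2-fold higher in IR+pilocarpine than in IR+saline, with a background of 6.88%. For IR+saline over non-IR, 8 members had enough UMIs (Gbp9 and Igtp did not), of which 6 were higher and 3 at least 2-fold higher, Gbp7, Irgm2 and Iigp1, with a background of 7.03%. Against non-IR, 9 of 10 in IR+pilocarpine were at least 2-fold higher, with a background of 8.48%. Gbp5 had 68 UMIs (35.0 CPM) in IR+pilocarpine, against 10 UMIs each in IR+saline (12.1 CPM) and non-IR (14.0 CPM), so that IR+pilocarpine alone stood apart. Its ratio for IR+pilocarpine against IR+saline was 2.89 (1.48 to 6.29), beside 1.04 in fibroblast-like nuclei, a difference that was not tested. Irgm2 had 64, 8 and 3 UMIs in IR+pilocarpine, IR+saline and non-IR, and Iigp1 105, 20 and 3. Macrophage markers in this class summed to 22.2 CPM in IR+pilocarpine, 13.4 CPM in IR+saline and 7.02 CPM in non-IR, the same order as the GTPases. Acinar markers summed to 46777 CPM in IR+pilocarpine, 32917 CPM in IR+saline and 37757 CPM in non-IR, and fibroblast markers to 353, 345 and 313 CPM. The part of any of these in the result was not tested.

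In acinar-like nuclei, the serous secretory cells, levels were low but the number of nuclei gave many UMIs. The sum in IR+pilocarpine, from 1556 UMIs, was 1.83 times that in IR+saline (1.68 to 2.0), and that in IR+saline, from 740 UMIs, 2.07 times that in non-IR (1.82 to 2.35), which had 368 UMIs. With free RNA subtracted, IR+pilocarpine was 3.55 times IR+saline, and IR+saline 2.06 times non-IR. Again 10 of 10 members were higher and 7 at least 2-fold higher in IR+pilocarpine than in IR+saline, with a background of 2.93%. For IR+saline over non-IR, 9 of 10 members had enough UMIs (Gbp9 did not), and all 9 were higher. Gbp2 and Irgm1 were at least 2-fold higher there, with a background of 4.99%. Against non-IR, all 10 in IR+pilocarpine were at least 2-fold higher, with a background of 4.92%. Macrophage markers summed to 13.8, 10.0 and 8.71 CPM in IR+pilocarpine, IR+saline and non-IR. Fibroblast markers summed to 38.6, 24.2 and 57.2 CPM in the same order, highest in non-IR and higher in IR+pilocarpine than in IR+saline. The part of either in the result was not tested.

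The members behaved unequally within acinar-like nuclei. Irgm1 had 503 UMIs (39.3 CPM) in IR+pilocarpine and 387 UMIs (34.7 CPM) in IR+saline, against 145 UMIs (12.6 CPM) in non-IR. Irradiated libraries were both high, with a ratio of 1.13 between them (0.991 to 1.30) and 2.75 for IR+saline against non-IR (2.26 to 3.35). Iigp1 had 96 UMIs (7.51 CPM) in IR+pilocarpine, against 12 UMIs (1.08 CPM) in IR+saline and 9 UMIs (0.784 CPM) in non-IR. Here IR+pilocarpine alone was high, at 6.98 times IR+saline (3.82 to 14.0). Gbp2, with 51, 8 and 3 UMIs in IR+pilocarpine, IR+saline and non-IR, and Gbp3, with 46, 10 and 8, followed the order of Iigp1. Irgm2 had 27.4 CPM in IR+pilocarpine, 10.5 CPM in IR+saline and 5.49 CPM in non-IR, and Gbp6 17.1, 7.08 and 5.31 CPM. For Irgm2, IR+saline against non-IR was 1.91 times, and 0.609 times with free RNA subtracted. Igtp had 7.27 CPM in IR+pilocarpine, 2.69 CPM in IR+saline and 1.65 CPM in non-IR, and Gbp7 13.4, 7.80 and 4.62 CPM. Gbp5, with 12, 8 and 5 UMIs in IR+pilocarpine, IR+saline and non-IR, and Gbp9, with 13, 2 and 2, had the fewest UMIs summed over the 3 libraries. Without Irgm1, the sum of the other 9 members in IR+pilocarpine was 2.60 times that in IR+saline, and in IR+saline 1.63 times that in non-IR.

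Different acinar clusters held most acinar-like nuclei in different libraries, clusters 0 and 2 in both irradiated libraries and clusters 0 and 1 in non-IR. Within cluster 0, the sum in IR+pilocarpine was 1.80 times that in IR+saline (1.54 to 2.12), and that in IR+saline 1.98 times that in non-IR (1.62 to 2.43). Within cluster 2 these ratios were 2.19 (1.94 to 2.47) and 2.56 (1.91 to 3.51). In cluster 1, IR+pilocarpine and IR+saline were not distinguishable, at a ratio of 1.12 (0.816 to 1.54), and IR+saline was 2.25 times non-IR (1.62 to 3.09). In cluster 14, led by cell cycle genes such as Top2a and Diaph3, the ratio was 0.979 for IR+pilocarpine against IR+saline (0.652 to 1.47) and 2.98 for IR+saline against non-IR (1.54 to 6.32). Cluster 19, of 123 nuclei, was present in non-IR alone.

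The makeup of the family differed between classes of the same library. In IR+pilocarpine, Iigp1 gave 39.8% of the GTPase UMIs of fibroblast-like nuclei, 26.4% in endothelial-like, 16.0% in myoepithelial-like and 6.17% in acinar-like nuclei. Irgm1 gave 7.30% in fibroblast-like and 32.3% in acinar-like nuclei of that library. The ratio of Iigp1 to Irgm1 UMIs was 5.45 in fibroblast-like nuclei and 0.191 in acinar-like nuclei of the same library. In IR+saline the same ratios were 3.04 and 0.0310, and in non-IR 1.30 and 0.0621. Within fibroblast-like nuclei the share of Iigp1 was 39.8% in IR+pilocarpine, 29.3% in IR+saline and 21.8% in non-IR.

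Among the other classes of the 8, ionocyte-like, macrophage-like and T or NK-like nuclei were higher in both irradiated libraries than in non-IR. Ionocyte-like nuclei had 174 CPM in IR+pilocarpine, 141 CPM in IR+saline and 52.1 CPM in non-IR, and macrophage-like nuclei 186, 155 and 68.6 CPM. In macrophages the GTPases are known for antimicrobial defence. The ratio of IR+pilocarpine to IR+saline was 1.21 in macrophage-like nuclei (0.966 to 1.5). In granular or striated duct-like nuclei it was 1.27 (0.897 to 1.75) and in ionocyte-like nuclei 1.24 (0.866 to 1.75). T or NK-like nuclei had 149.9 CPM in IR+pilocarpine, 216 CPM in IR+saline and 58.9 CPM in non-IR, from 73, 86 and 13 UMIs. They were the only class of the 8 with a lower sum in IR+pilocarpine than in IR+saline, at 0.695 times (0.502 to 0.961), and this direction reversed to 2.14 times in nuclei with at least 1000 genes. Of their 6 members with enough UMIs, 5 were lower in IR+pilocarpine than in IR+saline and 3 at least 2-fold lower, with a background of 7.8%. Schwann-like nuclei, of which IR+saline held 49, had 642 CPM in IR+pilocarpine, 478 CPM in IR+saline and 159 CPM in non-IR. Basal duct-like nuclei, at 44, 26 and 19 nuclei and 9, 7 and 8 GTPase UMIs, had the opposite order, with 68.2 CPM in IR+pilocarpine, 118 CPM in IR+saline and 129 CPM in non-IR. Lymphatic endothelial-like nuclei, with 4, 9 and 5 GTPase UMIs, had 236.5 CPM in IR+pilocarpine, 179 CPM in IR+saline and 297 CPM in non-IR. In basal duct-like and lymphatic endothelial-like nuclei no order was distinguishable at these counts. Pericyte or smooth muscle-like nuclei, with 37, 28 and 2 GTPase UMIs, had 367 CPM in IR+pilocarpine, 215 CPM in IR+saline and 33.1 CPM in non-IR.

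The share of nuclei with a GTPase UMI was compared at equal depth. Each nucleus was thinned to 800 UMIs so that depth could not set the share. In fibroblast-like nuclei, 37.9% of 672 nuclei of IR+pilocarpine had a GTPase UMI (exact 95% interval 34.3 to 41.7), 24.0% of 524 in IR+saline (20.4 to 27.9) and 14.0% of 514 in non-IR (11.1 to 17.3). This left out 61, 42 and 80 shallower nuclei, and unthinned shares were 54.4%, 38.5% and 21.2% at medians of 1528, 1658.5 and 1285 UMIs. In endothelial-like nuclei the thinned shares were 44.1% in IR+pilocarpine, 41.3% in IR+saline and 28.6% in non-IR, and in myoepithelial-like nuclei 19.2%, 9.63% and 5.02%. Acinar-like nuclei, which share the free RNA of the library, stood at 7.71%, 4.92% and 2.48%, with unthinned shares of 19.6%, 15.9% and 5.27% at medians of 2199, 2500 and 1499.5 UMIs. In macrophage-like nuclei the thinned shares were 12.99% in IR+pilocarpine, 17.6% in IR+saline and 6.25% in non-IR, in ionocyte-like nuclei 9.01%, 10.3% and 4.81%, and in duct-like nuclei 4.51%, 4.65% and 2.12%. In these 3 classes the irradiated libraries stood in the opposite order to their CPM, and no order is read from them.

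**Figure D3:**
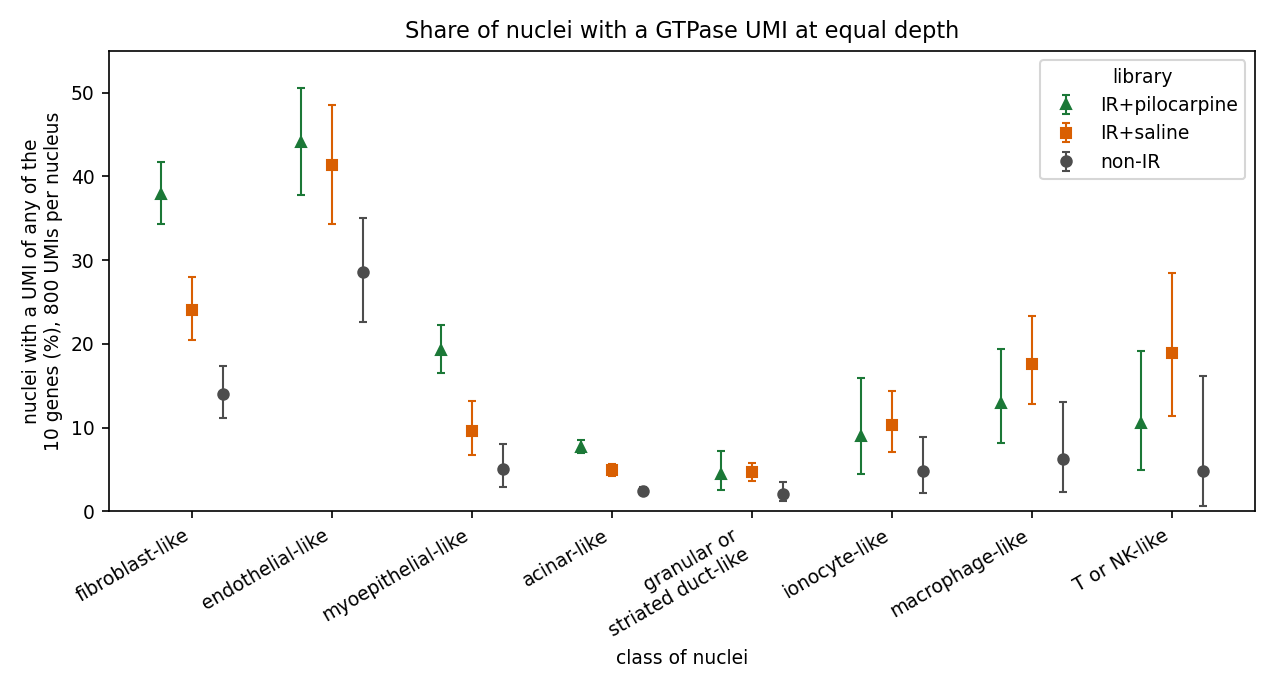
Share of nuclei (%) with at least 1 UMI of any of the 10 GTPase genes after thinning each nucleus to 800 UMIs, by class and library, with exact Clopper-Pearson 95% intervals (counting error only). In fibroblast-like nuclei the shares are 37.9% in IR+pilocarpine, 24.0% in IR+saline and 14.0% in non-IR, whereas acinar-like nuclei stay under 8% in each library.

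Within fibroblast-like nuclei the UMIs were unevenly spread. At least 5 GTPase UMIs were found in 93 of 733 nuclei of IR+pilocarpine, 22 of 566 of IR+saline and 3 of 594 of non-IR, and the highest single nucleus had 49, 24 and 7. The 10% of nuclei with the most GTPase UMIs held 55.2% of them in IR+pilocarpine, 59.7% in IR+saline and 63.1% in non-IR. At 800 UMIs, 107 nuclei of IR+pilocarpine, 22 of IR+saline and 5 of non-IR carried UMIs of at least 2 different members, which is 15.9%, 4.20% and 0.973% of those thinned.

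Upstream of the GTPases, the ligand was scarcely detected. Ifng, which encodes interferon-gamma, had 1 UMI over all nuclei of IR+pilocarpine, 4 in IR+saline, of which 2 lay in T or NK-like nuclei, and 0 in non-IR. In fibroblast-like nuclei the receptor gene Ifngr1 had 95.2 CPM in IR+pilocarpine, 129.6 CPM in IR+saline and 72.6 CPM in non-IR, so that it was highest in IR+saline. Ifngr2 had 28.1, 20.1 and 32.8 CPM in the same order, and neither of its ratios left the range of counting error. The kinase genes Jak1 (175, 179 and 171 CPM) and Jak2 (108, 109 and 95.5 CPM) lay close together in all 3 libraries. Irf1 had 73.1, 51.8 and 47.8 CPM, or 1.41 times for IR+pilocarpine against IR+saline (1.02 to 1.95).

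Of the 12 genes listed for interferon-gamma signalling, 10 had enough UMIs in fibroblast-like nuclei. For IR+saline over non-IR, 7 were higher and 3 lower. Socs3, a feedback inhibitor of cytokine signalling, was the only one past 2-fold, where 7.03% of all genes were at least 2-fold higher. It had 11 UMIs against 0, or 3.08-fold higher with non-IR set at a floor of 3 UMIs over the class. Its counting interval, taken from the 0 UMIs, began at 2.11. Between IR+pilocarpine and IR+saline, 5 were higher and 5 lower in IR+pilocarpine, and Socs3 was again the only one past 2-fold, at 0.497 times (0.163 to 1.40), where 3.38% of all genes were at least 2-fold lower. Irf8, a factor of myeloid cells, was 1.67 times as high in IR+pilocarpine as in IR+saline (0.860 to 3.41). In endothelial-like nuclei Irf1 had 102 CPM in IR+pilocarpine, 95.1 CPM in IR+saline and 71.8 CPM in non-IR. The ratios of Ifngr1 and Ifngr2 in endothelial-like nuclei, 1.40 and 0.671 for IR+pilocarpine against IR+saline and 0.801 and 1.34 for IR+saline against non-IR, all had intervals that spanned 1.

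Other interferon-gamma targets, of antigen presentation and chemokines, were mostly higher too in fibroblast-like nuclei, by smaller ratios. For IR+pilocarpine over IR+saline, 20 of 21 tested genes were higher, all but H2-DMa, and 6 at least 2-fold (6.11% of all genes), with a median log2 ratio of 0.37, against 1.13 for the 10 GTPases and 0.03 for all genes. Cd274, which encodes the checkpoint ligand PD-L1, had 55 UMIs (35.9 CPM) in IR+pilocarpine, 11 (9.20 CPM) in IR+saline and 4 (3.98 CPM) in non-IR, at 3.90 times for IR+pilocarpine against IR+saline (2.02 to 8.27). Psme2, a proteasome activator subunit, was 2.84 times as high (1.43 to 6.13). Nlrc5, the transactivator of MHC class I genes, had 114 CPM in IR+pilocarpine, 55.2 CPM in IR+saline and 24.9 CPM in non-IR. In IR+saline, 17 of 18 were higher than in non-IR, all but Psme2, and 6 at least 2-fold (7.03% of all genes), with a median of 0.56. Cxcl10, a chemokine that attracts T cells, had 37 UMIs in IR+pilocarpine and 26 in IR+saline, against 0 in non-IR. With non-IR set at the same floor, it was 7.28-fold higher in IR+saline than in non-IR. Its counting interval for that comparison, taken from the 0 UMIs, began at 5.51. Psmb9, a subunit of the immunoproteasome, had 45, 17 and 5 UMIs in IR+pilocarpine, IR+saline and non-IR.

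Other genes of a wider GTPase list, not limited to the families described above, were also mostly higher. Of 11 tested in fibroblast-like nuclei, 10 were higher in IR+pilocarpine than in IR+saline, all but Irgq, and 5 of them past 2-fold (6.11% of all genes), with a median log2 ratio of 0.90. Gbp4 had 206 UMIs (134 CPM) in IR+pilocarpine, 55 (46.0 CPM) in IR+saline and 17 (16.9 CPM) in non-IR, or 2.92 times for IR+pilocarpine against IR+saline (2.16 to 4.01). Gbp8, which like Gbp4 overlaps Gbp9, had 158 UMIs in IR+pilocarpine, against 44 in IR+saline. Tgtp2, an effector like Iigp1 with a near-identical copy in Tgtp1, had 36 UMIs in IR+pilocarpine, 2 in IR+saline and 1 in non-IR, and its ratio of 14.0 for IR+pilocarpine against IR+saline was wide (3.62 to 120). Gbp10 had 14 UMIs in IR+pilocarpine, against 0 in IR+saline, and Gvin1 40 against 11. In IR+saline, 8 of 8 tested were higher than in non-IR, and 4 of them were past 2-fold (7.03% of all genes), Gm4951, Gbp4, F830016B08Rik and Gvin1. In endothelial-like nuclei Gbp4 was 1.68 times as high in IR+pilocarpine as in IR+saline (1.26 to 2.24), while Tgtp2, with 9 UMIs in IR+pilocarpine, 12 in IR+saline and 3 in non-IR, had a ratio of 0.629 (0.234 to 1.63). Gvin1 there was 1.69 times as high in IR+saline as in non-IR (0.858 to 3.45). In fibroblast-like nuclei Gm4951 had 169.6 CPM in IR+pilocarpine, 90.3 CPM in IR+saline and 29.9 CPM in non-IR.

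Type I interferon genes gave a different order of the irradiated libraries in fibroblast-like nuclei. For IR+saline over non-IR, 30 of 31 were higher, all but Tyk2, and 17 at least 2-fold (7.03% of all genes), with a median log2 ratio of 1.18, beside 1.17 for the 10 GTPases. Of the same 31, 14 were higher and 17 lower in IR+pilocarpine than in IR+saline, with a median of -0.09, beside 1.13 for the GTPases. Only Oas1a was past 2-fold higher there, at 2.11 times (0.988 to 4.88), and only Rsad2 past 2-fold lower. Of all genes, 6.11% were at least 2-fold higher and 3.38% at least 2-fold lower. Rsad2, which encodes the antiviral protein viperin, had 30.0 CPM in IR+pilocarpine, 66.0 CPM in IR+saline and 17.9 CPM in non-IR, or 0.454 times for IR+pilocarpine against IR+saline (0.309 to 0.662). Oas2, a sensor of double-stranded RNA, had 54.8 CPM in IR+pilocarpine, 99.5 CPM in IR+saline and 19.9 CPM in non-IR. Ifit3 had 25.4, 33.4 and 5.97 CPM in the same order. The difference between the GTPases and the type I list was not tested, and both lists can respond to either interferon.

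**Figure D4:**
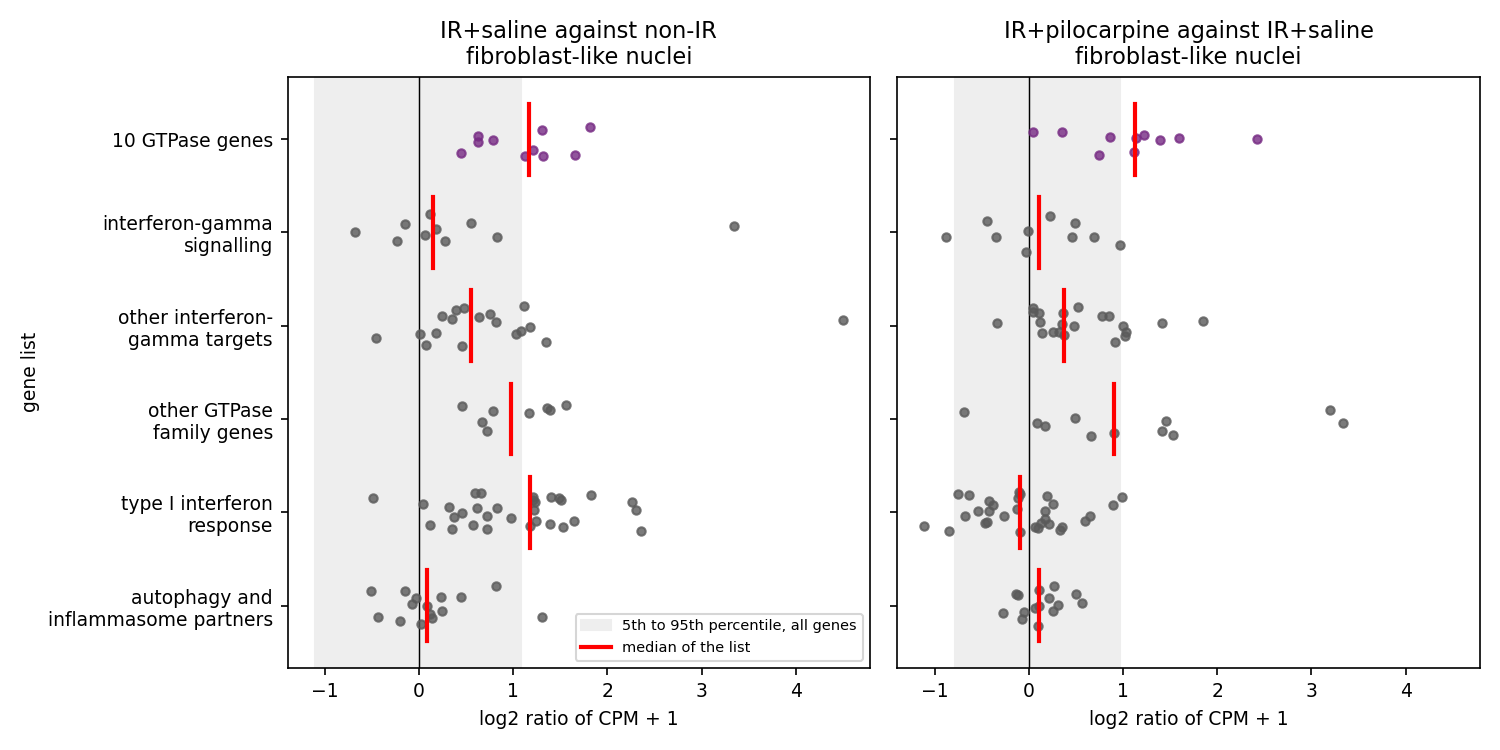
Log2 ratio of CPM + 1 in fibroblast-like nuclei for the 10 GTPase genes and 5 lists of related genes, IR+saline against non-IR on the left and IR+pilocarpine against IR+saline on the right, 1 point per gene with 10 or more UMIs summed over the compared libraries. Red bars are list medians and the grey band spans the 5th to 95th percentile of all genes tested; the type I median is 1.18 on the left and -0.09 on the right, while the GTPase median is 1.17 and 1.13, and the points of Cxcl10, Socs3 and Gbp10, with 0 UMIs in 1 library, depend on the value added.

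The same lists were counted in other classes. In myoepithelial-like nuclei, IR+pilocarpine against IR+saline gave medians of 1.10 for the GTPases, 0.81 for other interferon-gamma targets, of which 18 of 20 were higher (0.71 with a library at 0 set to 3 UMIs), and 0.13 for type I genes, of which 20 of 29 were higher. In acinar-like nuclei the same medians were 1.17, 0.64 (19 of 22 higher) and 0.06 (17 of 29 higher). In endothelial-like nuclei, they were 0.30, 0.26 (12 of 20 higher) and -0.05 (14 of 30 higher). There, Nlrc5 was 1.69 times as high in IR+pilocarpine as in IR+saline (1.21 to 2.39) and Tapbp, which loads MHC class I peptides, 0.629 times (0.404 to 0.971). Ifit1, Bst2, Cmpk2 and Samd9l were the type I genes past 2-fold lower, 4 of 30 tested, where 6.52% of all genes were. Ifit1 was at 0.393 times (0.198 to 0.747) and Bst2, which tethers budding virions, at 0.419 times (0.204 to 0.823). Of 30 type I genes, 26 were higher in endothelial-like nuclei of IR+saline than of non-IR, 13 at least 2-fold (7.59% of all genes). Irf7 had 17 UMIs against 3 and Ifit1 32 against 8. Cd274 was 3.04 times (1.16 to 9.37) and Psmb9 2.28 times (0.945 to 6.07) as high in that comparison.

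Genes of the autophagy conjugation system and of inflammasomes, which load the GTPases onto vacuoles or act downstream of them, had medians near that of all genes in fibroblast-like nuclei. For IR+saline over non-IR, 9 of 15 were higher with a median log2 ratio of 0.09. Casp4, the sensor caspase of bacterial lipopolysaccharide, was the only one past 2-fold (7.03% of all genes higher), at 2.59 times (1.32 to 5.46). The autophagy gene Gabarapl2 had a ratio of 1.82 there (0.887 to 3.96). In IR+pilocarpine, 10 of 15 were higher than in IR+saline and 0 past 2-fold (6.11% of all genes higher and 3.38% lower), with a median of 0.11. Casp4 was at 1.5 times (0.993 to 2.29) and Traf6, a ubiquitin ligase, at 1.43 times (0.97 to 2.14). In endothelial-like nuclei Atg12 was the only one past 2-fold, at 2.03 times for IR+saline against non-IR (0.943 to 4.64). Of all genes, 7.59% were at least 2-fold higher there. Traf6 was at 1.93 times in that comparison (1.11 to 3.45), and for IR+pilocarpine against IR+saline Map1lc3b was at 1.82 times (1.00 to 3.46) and Atg16l1 at 1.43 times (1.03 to 1.99).

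Likeness to the summed GTPases was measured as Pearson's r between log2(CPM + 10) values over 24 points, 8 classes in 3 libraries, which share library, depth and free RNA. Each member was set against the sum of the other 9. Gbp7 was most like the rest (r = 0.943), followed by Iigp1 (0.916) and Gbp3 (0.906), and Irgm1, with its high acinar share, was least like it (0.657). Outside the lists, the 10 most alike of 15249 genes were H2-T22 (r = 0.886), Gm44148, Ccdc102a, Olfr56, Ddx60, Uba7, Ifitm3, Iffo1, Ctso and Ndrg1 (0.824). Olfr56 is annotated across Ifi47, Tgtp1 and Tgtp2, and Gm44148 lies antisense to Usp18, so reads of these neighbours may not be separable. H2-T22, a nonclassical MHC class I gene, had 105 CPM in fibroblast-like nuclei of IR+pilocarpine, 72.7 CPM in IR+saline and 40.8 CPM in non-IR. Uba7, the activating enzyme for conjugation of Isg15, had 52.2, 32.6 and 30.8 CPM in the same order. Ifitm3, which blocks entry of viruses, had 30.0 CPM in IR+pilocarpine, 46.8 CPM in IR+saline and 14.9 CPM in non-IR, so a high r over classes did not require the GTPases' order of libraries.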

How the data were processed

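The deposited files hold counts of UMIs per gene and barcode, not normalized, made by the authors with Cell Ranger 7.0.1 on GRCm38, per the submitters' processing notes. Nuclei were sorted by DAPI from frozen glands and processed with a droplet kit for transcript 3' ends, per the labels' protocols. Whether intronic reads were counted is not given in the sources used here.

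Kept barcodes had 500 or more genes and no more than 5% mitochondrial UMIs. Scrublet, run with scanpy 1.11.5, called 0, 0 and 2 doublets in the IR+pilocarpine, IR+saline and non-IR libraries, under 0.5% of each, so the caller did not work and doublets remained. The libraries were clustered together (3000 variable genes without the genes of any list described, 30 principal components, 15 neighbours, Leiden resolution 1, leidenalg 0.10.2). A cluster was named for a type with 3 or more detected markers whose log2(CPM + 1), as a median share of the highest cluster, reached 0.75, a level set after seeing clusters, unless its 10 leading genes held more markers of another type. Clusters with over 2 times the median UMIs of the class's largest cluster (6, 16 and 20) were set aside, also after seeing the data. Names were rebuilt here.

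UMIs were summed per class and library. With 1 library per group no test was run. CPM values have exact Poisson and ratios exact conditional binomial 95% intervals (scipy 1.17.1), for counting error only; nuclei are not replicates. Genes with 10 or more UMIs summed over the compared libraries were read against 2-fold, with a library at 0 set to 3 UMIs, and medians are of log2 ratios of CPM + 1. The ratio code was tested on simulated data. The members and gene lists were chosen with earlier results of these data known. Named were all 10 members, Ifng, Ifngr1, Ifngr2, Jak1, Jak2 and Irf1, and in each list the 2 genes with the largest absolute log2 ratio among those with at least 20 UMIs, in fibroblast-like and endothelial-like nuclei. Other list genes, such as Nlrc5, Gbp8, Gbp10, Gvin1, Socs3, Cmpk2 and Samd9l, were named after their values were seen. For likeness, genes needed at least 100 UMIs. Cxcl11, Gbp11, Iigp1b, Gm12250, Mx1 and Mx2 were not analysed here, and 1 further gene that the naming rule covers is not reported here. Gene positions come from a GENCODE annotation of GRCm38.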

Additional observations from a re-analysis of the deposited data

Results flagged for a closer look

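The summed GTPase level of T or NK-like nuclei was 0.695 times as high in IR+pilocarpine as in IR+saline (149.9 and 216 CPM), opposite in direction to the other 7 classes. The difference between classes was not tested. It rests on 73 and 86 UMIs, and it reversed to 2.14 times in nuclei with at least 1000 genes.

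Barcodes removed by the filters on genes and mitochondrial UMIs, or as called doublets, also carried GTPase UMIs. No comparison at the main settings used them. Their sum was 254 CPM in IR+pilocarpine (245 UMIs in 1912 barcodes) and 161 CPM in IR+saline (124 UMIs in 1539 barcodes), against 54.8 CPM in non-IR (47 UMIs in 1429 barcodes). These values order the libraries as the nuclei used do, which had 222, 112 and 52.3 CPM.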

How the results depend on the processing

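Of 262 recomputed summed ratios, 226 moved by less than the counting interval, 33 moved further and 3 were counted as reversed. These 3 are not every change of direction. IR+pilocarpine against IR+saline also changed direction in duct-like nuclei with free RNA subtracted and in endothelial-like nuclei with at least 1000 genes. In both, the main interval spanned no difference. Of 262 recomputed counts past 2-fold, 177 stayed within 1.5 times. Of 24 recomputed median log2 ratios, 9 were counted as the same, 15 as moved and 0 as reversed, so the medians given above depend on the processing. No paired analysis was possible because there was a single library in each group, and no replicate could be left out. Where values moved, the cause was not tested. The estimate of free RNA is not described here, so values with it subtracted show only how a result moved. Counts of members past a fold under other settings, or at 1.5-fold, are given below without direction and without the share over all genes. They show only how the count moved and are not read as results.

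In fibroblast-like nuclei, IR+saline against non-IR was 1.67 with at least 1000 genes and 1.96 without the highest doublet scores, with 3 members past 2-fold in each. IR+pilocarpine against IR+saline was 2.85 and 2.61 under the same settings and 1.90 without the member with most UMIs. Against non-IR, IR+pilocarpine was 4.10 without that member. A further alternative, chosen after seeing the data, kept high-UMI clusters in their classes and lowered the marker level for naming from 0.75 to 0.65. None of the clusters set aside for high UMIs was fibroblast-like. At the lower level, cluster 15, of 358 nuclei and unnamed before, was counted as fibroblast-like. The IR+pilocarpine ratios were then 2.92 against IR+saline and 6.49 against non-IR.

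In endothelial-like nuclei, IR+saline against non-IR was 2.80 with at least 1000 genes, 1.69 (3 members past 2-fold) in nuclei thinned to 800 UMIs and 1.13 (2 members) with each library clustered alone. IR+pilocarpine against IR+saline was 0.888 with at least 1000 genes and 1.43 with libraries clustered alone; its count of 0 became 1 with at least 200 genes or free RNA subtracted, 4 when thinned, 3 when clustered alone and 2 at a threshold of 1.5-fold. IR+pilocarpine against non-IR was 1.61 (3 members) when clustered alone, with 8 members past 1.5-fold.

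In acinar-like nuclei, IR+saline against non-IR was 1.63 without the member with most UMIs. IR+pilocarpine against IR+saline was 1.53 with at least 200 genes, 1.67 at 1% mitochondrial UMIs, 2.60 without that member and 3.55 with free RNA subtracted. IR+pilocarpine against non-IR was 3.21, 3.09 and 7.31 with at least 200 genes, 1% mitochondrial UMIs and free RNA subtracted.

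Among the reversals counted was IR+pilocarpine against IR+saline in T or NK-like nuclei (2.14 with at least 1000 genes). With free RNA subtracted, they were duct-like IR+saline against non-IR (0.493) and IR+pilocarpine against non-IR (0.304) and Irgm2 in acinar-like IR+saline against non-IR (0.609). In thinned endothelial-like nuclei, Igtp reversed for IR+saline against non-IR (0.554), and Gbp7 (0.801) and Irgm2 (0.886) for IR+pilocarpine against non-IR. Depth limits single members in each class, as many have under 20 UMIs in non-IR. In fibroblast-like nuclei these are Gbp2, Gbp5, Gbp9, Igtp and Irgm2, and in acinar-like nuclei Gbp2, Gbp3, Gbp5, Gbp9, Igtp and Iigp1.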
